A study of Homo sapiens with 16 samples.

Results

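Extracellular matrix genes were examined in RNA-seq of H1299 cells after knockdown (KD) of YEATS2. The group holds the collagen chains (symbols of the form COL, number, A, number), the laminin α, β and γ chains, and 16 named matrix glycoproteins and proteoglycans. These are FN1, SPARC, TNC, NID1, NID2, HSPG2, AGRN, THBS1, THBS2, THBS3, VCAN, BGN, DCN, LUM, TGFBI and ECM1. Members were chosen by symbol, and 35 of the 12676 genes in the count table met the rule: 13 collagens, 10 laminins and 12 glycoproteins or proteoglycans. A human gene annotation holds 72 protein-coding genes with such symbols, and the other 37 were not in the count table. H1299 cells are an established human line from a non-small cell carcinoma of the lung. The control cells carried a non-targeting pLKO shRNA vector (shNT) and the KD cells a pLKO shRNA against YEATS2 (shYEATS2), with 2 libraries each. Both groups were thus exposed to virus with 8 µg per ml polybrene, followed after 48 h by 2 µg per ml puromycin for 4 to 7 days per the labels (the study's methods give a shorter selection), and uninfected cells were not analysed here. The study describes 2 shRNAs against YEATS2 and names 1 of them for this RNA-seq. In these libraries effects of YEATS2 loss and of that shRNA on other transcripts therefore cannot be told apart. The study also reports RNA-seq with the other shRNA, which gave a partial KD, and rescue experiments, and these were not analysed here.

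The extracellular matrix is the secreted scaffold that surrounds cells. Collagens assemble from 3 α chains into triple helices that form fibrils, networks or beaded filaments, and laminins are cross-shaped trimers of an α, a β and a γ chain that build basement membranes. Nidogen, perlecan and agrin link the laminin and collagen networks, whereas fibronectin, tenascins, thrombospondins and SPARC bind cells and other matrix components. Carcinoma cells make part of this matrix themselves, and epithelial and mesenchymal cells differ in which chains they use.

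The libraries held between 34718921 and 39417787 reads on the listed genes, and TMM factors lay between 0.952 and 1.05. A scaled read count below is the read count divided by the TMM library size and multiplied by the mean TMM size of the 4 libraries. YEATS2, the targeted gene, had 4482 and 4104 scaled reads in shNT and 665 and 673 in shYEATS2 libraries (log2 fold change -2.68, standard error 0.10, FDR 0.000583). FDR denotes the Benjamini-Hochberg adjusted p-value of edgeR's quasi-likelihood test over all 12676 genes, and a gene was called at an FDR under 0.01. Each value rests on 2 libraries per group, and p-values reflect only the spread between those libraries. In the test the spread of each gene is moderated by that of all genes. With column totals in place of TMM, the median over all genes moved from -0.0019 to 0.12 (log2), and changes are given relative to the TMM median. Among epithelial markers, the keratin genes KRT8, KRT18 and KRT7 were listed (3 of 6), with a summed count of 28216 and 26880 reads in shNT and 29162 and 22066 in shYEATS2 libraries. They differed in direction: KRT7 was called higher (log2 fold change 1.55, FDR 0.00349), KRT8 (0.31, FDR 0.0958) and KRT18 (-0.81, FDR 0.0283) were not called, and KRT18 was -1.27 with an FDR of 0.000394 without shYEATS2 replicate 1. KRT7 was listed through its shYEATS2 libraries only and lost its call without shNT replicate 2 (FDR 0.0113). Of 7 fibroblast and mural markers 3 were listed, and they summed to 265 reads in each shNT library and to 427 and 580 reads in the shYEATS2 libraries. PDGFRB, the defining receptor of mural cells, had 8 and 16 reads in shNT and 62 and 203 reads in shYEATS2 libraries and was called higher. It was listed through the shYEATS2 libraries only, and its call was lost without shNT replicate 1 (FDR 0.0166) or shYEATS2 replicate 2 (FDR 0.0152), where the log2 fold change went from 3.21 to 2.22. ACTA2 (log2 fold change 0.018, FDR 0.940) and TAGLN (0.73, FDR 0.0222), the other listed markers, were not called. THY1, FAP, PDPN, PDGFRA, EPCAM, CDH1 and KRT19 were not listed, nor was any of the 5 endothelial, 5 leukocyte and 4 lung alveolar markers. The part of the fibroblast and mural markers in the changes below was not tested, and in bulk RNA fewer cells of a type and less RNA per cell cannot be told apart.

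Most matrix genes that were listed had more reads in YEATS2 KD cells. Of the 35 members, 18 were called higher and 1 was called lower. Over all genes tested, 12.9% were called higher and 12.5% lower. Laminin γ chain LAMC1, perlecan (HSPG2), agrin (AGRN), fibronectin (FN1) and the listed type VI collagen chains COL6A1 and COL6A2 rose between 2.20-fold and 4.43-fold. COL7A1, which forms the anchoring fibrils beneath epithelia, fell to 0.363 of its control level. Over the members the median change was 1.12 on the log2 scale, beside -0.0019 over all genes. Both shYEATS2 libraries lay above both shNT libraries for 29 members and below both for COL7A1 and COL17A1, against 39.7% and 39.8% of all genes. At an unadjusted p under 0.05, 28 members were higher and 2 lower, beside 3636 and 3528 of all 12676 genes.

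Every gene in the table had over 100 reads in some library, so a gene that is low in control cells was listed only if it was higher in KD cells. This held for 9 members (COL11A1, COL5A1, COL5A2, COL16A1, LAMA4, ECM1, SPARC, THBS2 and TNC), of which 6 were called higher, and 32.2% of all genes listed in this way were called higher. COL7A1 was listed through its shNT libraries only. These 10 genes therefore had to differ, and their counts are given as a description. The other 25 members had over 100 reads in a library of each group. Among them 12 (48.0%) were called higher and none lower, whereas 11.9% of all genes with reads in both groups were called higher. The 25 had a median log2 fold change of 0.89, beside -0.027 over all 11814 genes with reads in both groups. Both shYEATS2 libraries lay above both shNT libraries for 20 of the 25 and below both for 1, against 4441 and 4891 of those genes. At an unadjusted p under 0.05, 19 of the 25 were higher and 1 lower, beside 3138 and 3401 of those genes. None of the 25 was lower at an FDR under 0.01 by exactTest, DESeq2 or the fit with a replicate block, each on all 4 libraries. COL17A1 was the single one of them lower at an unadjusted p under 0.05. Its log2 fold change of -0.63 depended on the libraries, with -1.06 without shYEATS2 replicate 1 and -0.29 without shYEATS2 replicate 2.

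**Figure D1:**
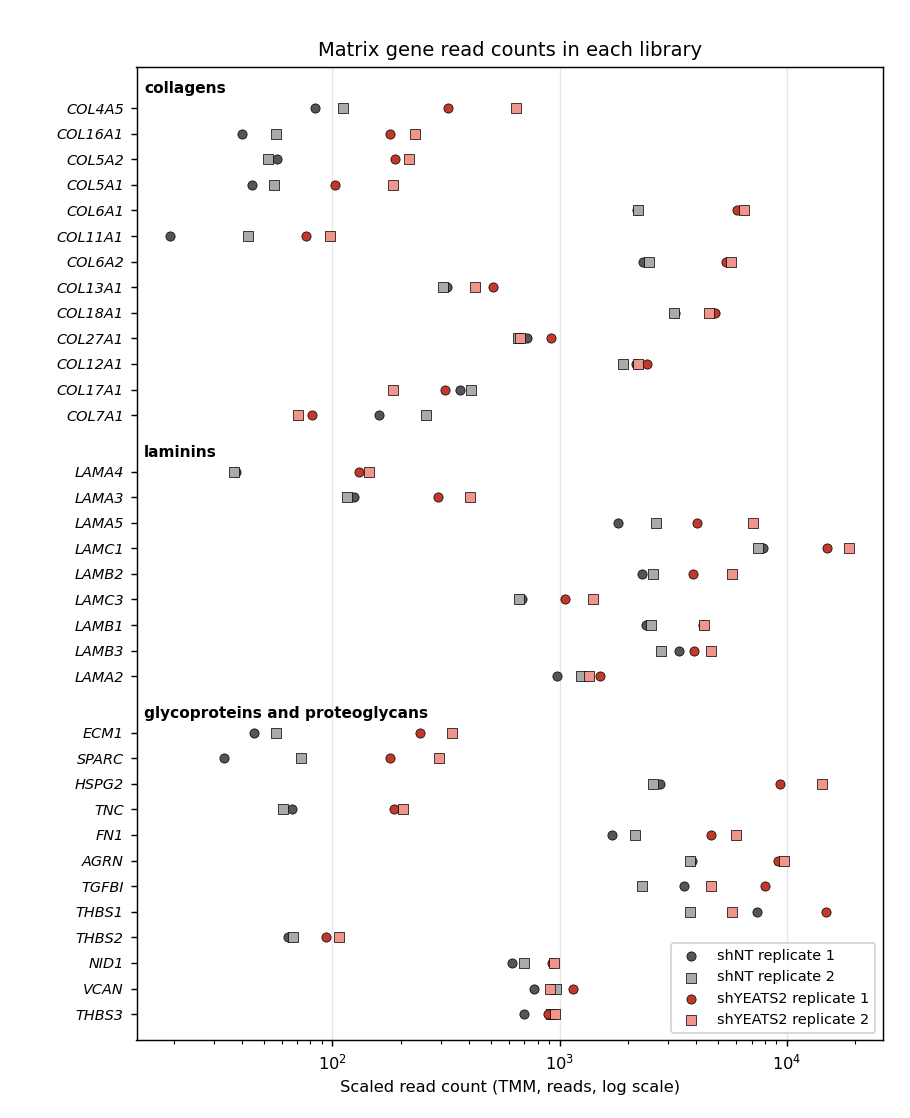
Scaled read count (TMM, log axis) of 34 of the matrix genes in each of the 4 libraries, with 1 symbol per library and genes grouped into collagens, laminins, and glycoproteins and proteoglycans. For 28 genes both red shYEATS2 symbols lie to the right of both grey shNT symbols, and for COL7A1 and COL17A1 they lie to the left.

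Reads on the 35 members together made up 1528 and 1390 CPM (reads relative to the TMM library size) in the shNT libraries and 3006 and 3119 CPM in the shYEATS2 libraries. The collagens took 322 and 321 CPM in shNT and 587 and 595 CPM in shYEATS2 libraries. For the laminins these values were 617 and 593 CPM in shNT and 1054 and 1314 CPM in shYEATS2 libraries. The sums did not overlap between the groups.

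RefSeq promoter windows (build GRCh38.p14, from 250 bases before to 50 bases after a transcription start) were found for 30 of the 35 members. COL5A2, COL6A1, LAMC3 and AGRN were among those with no entry. The windows below belong to the 4 members with a window that rose in the type VI collagen, perlecan, laminin γ and fibronectin groups, and to COL7A1, the member that fell. They are written 5′ to 3′ on the gene's strand, and capitals mark the GC box GGGCGG or its complement CCGCCC.
COL6A2 (chr21:46097862-46098161, plus strand): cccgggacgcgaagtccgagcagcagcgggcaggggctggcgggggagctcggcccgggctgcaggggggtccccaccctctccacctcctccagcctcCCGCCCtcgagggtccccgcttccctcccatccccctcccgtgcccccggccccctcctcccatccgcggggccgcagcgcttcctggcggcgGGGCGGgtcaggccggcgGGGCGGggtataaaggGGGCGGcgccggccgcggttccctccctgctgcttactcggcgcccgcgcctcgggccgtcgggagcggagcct
HSPG2 (chr1:21937261-21937560, minus strand): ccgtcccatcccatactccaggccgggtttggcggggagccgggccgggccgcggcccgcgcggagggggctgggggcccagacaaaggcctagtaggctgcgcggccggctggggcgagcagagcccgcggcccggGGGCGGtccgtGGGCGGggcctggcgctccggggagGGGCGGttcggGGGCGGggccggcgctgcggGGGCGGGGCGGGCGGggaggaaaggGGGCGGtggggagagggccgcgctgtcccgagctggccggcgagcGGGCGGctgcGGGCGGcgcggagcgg
LAMC1 (chr1:183023170-183023469, plus strand): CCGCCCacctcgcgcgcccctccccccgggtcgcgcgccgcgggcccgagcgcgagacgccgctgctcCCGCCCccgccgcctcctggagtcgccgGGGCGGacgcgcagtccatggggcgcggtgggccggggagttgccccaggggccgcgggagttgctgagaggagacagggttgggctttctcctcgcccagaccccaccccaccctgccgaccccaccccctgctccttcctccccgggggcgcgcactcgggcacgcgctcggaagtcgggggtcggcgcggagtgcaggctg
FN1 (chr2:215436019-215436318, minus strand): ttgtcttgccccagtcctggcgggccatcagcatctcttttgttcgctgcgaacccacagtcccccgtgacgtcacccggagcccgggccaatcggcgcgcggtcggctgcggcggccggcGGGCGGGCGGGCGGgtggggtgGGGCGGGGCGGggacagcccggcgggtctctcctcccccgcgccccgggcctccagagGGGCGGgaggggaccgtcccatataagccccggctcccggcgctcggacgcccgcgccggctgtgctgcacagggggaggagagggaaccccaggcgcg
COL7A1 (chr3:48595280-48595579, minus strand): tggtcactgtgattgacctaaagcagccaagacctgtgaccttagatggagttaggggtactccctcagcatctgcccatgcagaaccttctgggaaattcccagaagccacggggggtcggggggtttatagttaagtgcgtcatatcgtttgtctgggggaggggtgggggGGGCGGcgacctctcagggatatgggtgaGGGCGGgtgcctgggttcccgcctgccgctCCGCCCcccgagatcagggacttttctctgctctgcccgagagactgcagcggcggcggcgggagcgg

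The HSPG2 window holds 10 GC boxes, the FN1 window 6, the COL6A2 window 4, and the LAMC1 and COL7A1 windows 3 each, where overlapping copies count separately. A GC box on either strand was present in 23 of the 30 members with a window (76.7%) and in 48.3% of the 27305 genes with one. Those 27305 genes were not limited to the count table, whereas every member is in it, so the 2 sets also differ in expression in H1299 cells. The GC box was present in 11 of the 14 members called higher that have a window. The member windows were richer in G and C, with a median of 64.7% against 58.7% over all windows. The TATA box TATAAA was present in 7 of 30 members (23.3%) against 13.99% of all genes. COL6A2 carries it on the gene's strand, whereas the COL7A1 match is its complement TTTATA, on the other strand. A CCAAT box (CCAAT) was present in 8 members (26.7% against 39.7%) and the AP-1 site TGANTCA in ECM1, LAMA3 and LAMB3 (10% against 9.37%). FN1 was the single member with the CRE TGACGTCA (3.33% against 2.25%). The TEAD site CATTCC was present in 5 members (16.7% against 16.7%). The E-box CACGTG was in none of the 30 windows and in 8.77% of all genes. Both strands were searched throughout, and a match is a description of the sequence only.

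Type VI collagen forms beaded filaments around cells. Of its chains, COL6A3, COL6A5 and COL6A6 were not in the count table. COL6A1 (chromosome 21, 47401684 to 47424964, build GRCh37 as for all gene positions) had 2196 and 2217 scaled reads in shNT and 6023 and 6499 in shYEATS2 libraries. It rose by 1.50 on the log2 scale (standard error 0.10, FDR 0.000793). COL6A2 (chromosome 21, 47518026 to 47552762), its neighbour on the chromosome, had 2318 and 2463 scaled reads in shNT and 5405 and 5657 in shYEATS2 libraries. The rise was 1.21 (standard error 0.095, FDR 0.000843). In both genes the gap between the groups was wider than the spread within either group. Each was called with any 1 library left out, where the log2 fold changes lay between 1.16 and 1.56.

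Type IV chains COL4A1, COL4A2, COL4A3, COL4A4 and COL4A6 were not in the count table. COL4A5 (chromosome X, 107683068 to 107940775) encodes a chain of the type IV collagen network of basement membranes. It had 83.9 and 112 scaled reads in shNT and 322 and 644 in shYEATS2 libraries. The groups do not overlap, although the shYEATS2 libraries were further apart on the log2 scale than those of any other called member. The log2 fold change was 2.31 (standard error 0.35, FDR 0.00321), and it lay between 1.72 without shYEATS2 replicate 2 and 2.72 without shYEATS2 replicate 1. COL18A1 (chromosome 21, 46825080 to 46933634), the basement membrane collagen from which endostatin is cut, had 3225 and 3172 scaled reads in shNT and 4850.0 and 4554 in shYEATS2 libraries. It rose by 0.56 on the log2 scale (standard error 0.092, FDR 0.00418). The call was lost without either shNT library, at an FDR of 0.0263 without replicate 1 and 0.0284 without replicate 2, and also when trends with exon length, GC content and count were removed (FDR 0.0141). Of its exon bases 18.5% overlap SLC19A1 on the opposite strand. SLC19A1 had 1540 and 1284 scaled reads in shNT and 1125 and 813 in shYEATS2 libraries.

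Fibrillar collagens build the tensile fibrils of connective tissue, and type V chains start their assembly. COL1A1, COL1A2 and COL3A1 were among the fibrillar chains not in the count table. COL5A2 (chromosome 2, 189896624 to 190090038) had 57.0 and 52.1 scaled reads in shNT and 189 and 217 in shYEATS2 libraries. It rose by 1.89 (log2 fold change, standard error 0.21, FDR 0.00140). COL5A2, COL5A1 and COL11A1 were listed through their shYEATS2 libraries only. For COL5A1 (chromosome 9, 137533649 to 137736689), which pairs with COL5A2 in type V collagen, the values were 44.1 and 55.3 scaled reads in shNT and 103 and 186 in shYEATS2 libraries. The groups do not overlap, yet COL5A1 was not called, with a log2 fold change of 1.54, a 95% interval from 0.73 to 2.35 and an FDR of 0.0111. With 1 library left out it lay between 1.05 without shYEATS2 replicate 2 (FDR 0.0358) and 1.90 without shYEATS2 replicate 1 (FDR 0.00163), the single one of these fits that called it. It was called in the block fit (FDR 0.000686) and was 0.85 with an FDR of 0.0823 when trends with exon length, GC content and count were removed. COL11A1 (chromosome 1, 103342023 to 103574428), a minor fibrillar chain that also joins type V trimers, had 19.4 and 42.3 scaled reads in shNT and 76.6 and 97.3 in shYEATS2 libraries. Both KD values exceed both control values, which differ from each other. Its log2 fold change of 1.50 (95% interval 0.58 to 2.41) had an FDR of 0.0184. It lay between 1.03 without shNT replicate 1 (FDR 0.0950) and 2.16 without shNT replicate 2 (FDR 0.00926), with an FDR of 0.0629 without shYEATS2 replicate 2. The block fit called it (FDR 0.00197), and with those trends removed it was 0.58 (FDR 0.253). COL27A1 (chromosome 9, 116917817 to 117074791), a fibrillar chain of cartilage, had 717 and 654 scaled reads in shNT and 918 and 668 in shYEATS2 libraries. Those values overlap between the groups, with a log2 fold change of 0.21 (95% interval -0.19 to 0.61, FDR 0.332) that was -0.037 without shYEATS2 replicate 1.

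Fibril-associated collagens coat the surface of fibrils. COL16A1 (chromosome 1, 32117864 to 32169920) had 39.8 and 56.4 scaled reads in shNT and 179.8 and 229.9 in shYEATS2 libraries. It rose by 2.09 on the log2 scale (standard error 0.26, FDR 0.00181) and was listed through its shYEATS2 libraries only. COL12A1 (chromosome 6, 75794042 to 75915983), another of this class, had 2172 and 1905 scaled reads in shNT and 2426 and 2223 in shYEATS2 libraries. Its groups were separate but close, and the log2 fold change of 0.19 (95% interval -0.068 to 0.45) had an FDR of 0.185.

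Anchoring and transmembrane collagens were 3 in number. COL7A1 (chromosome 3, 48601506 to 48632762) had 160.3 and 259 scaled reads in shNT and 81.6 and 70.7 in shYEATS2 libraries. Both KD values are lower than both control values. It fell by a log2 fold change of -1.46 (standard error 0.28, FDR 0.00663) and was listed through its shNT libraries only. The call held without shNT replicate 1 (FDR 0.0029) and was lost without shNT replicate 2 (0.0337), shYEATS2 replicate 1 (0.0102) or shYEATS2 replicate 2 (0.0230), while the log2 value stayed between -1.77 and -1.07. COL17A1 (chromosome 10, 105791044 to 105845638), a transmembrane collagen of hemidesmosomes, had 363 and 406 scaled reads in shNT and 314 and 184 in shYEATS2 libraries. shYEATS2 replicate 2 is the lowest of these, and the log2 fold change of -0.63 (95% interval -1.22 to -0.033) was not called (FDR 0.0765), but was -1.06 with an FDR of 0.0038 without shYEATS2 replicate 1 and -0.29 with an FDR of 0.218 without shYEATS2 replicate 2. COL13A1 (chromosome 10, 71561636 to 71724031), a transmembrane collagen of cell adhesion sites, had 319.6 and 308 scaled reads in shNT and 508 and 426 in shYEATS2 libraries. Its groups were apart, with a log2 fold change of 0.57 (95% interval 0.23 to 0.92) at an FDR of 0.0175, and 0.00492 in the block fit.

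**Figure D2:**
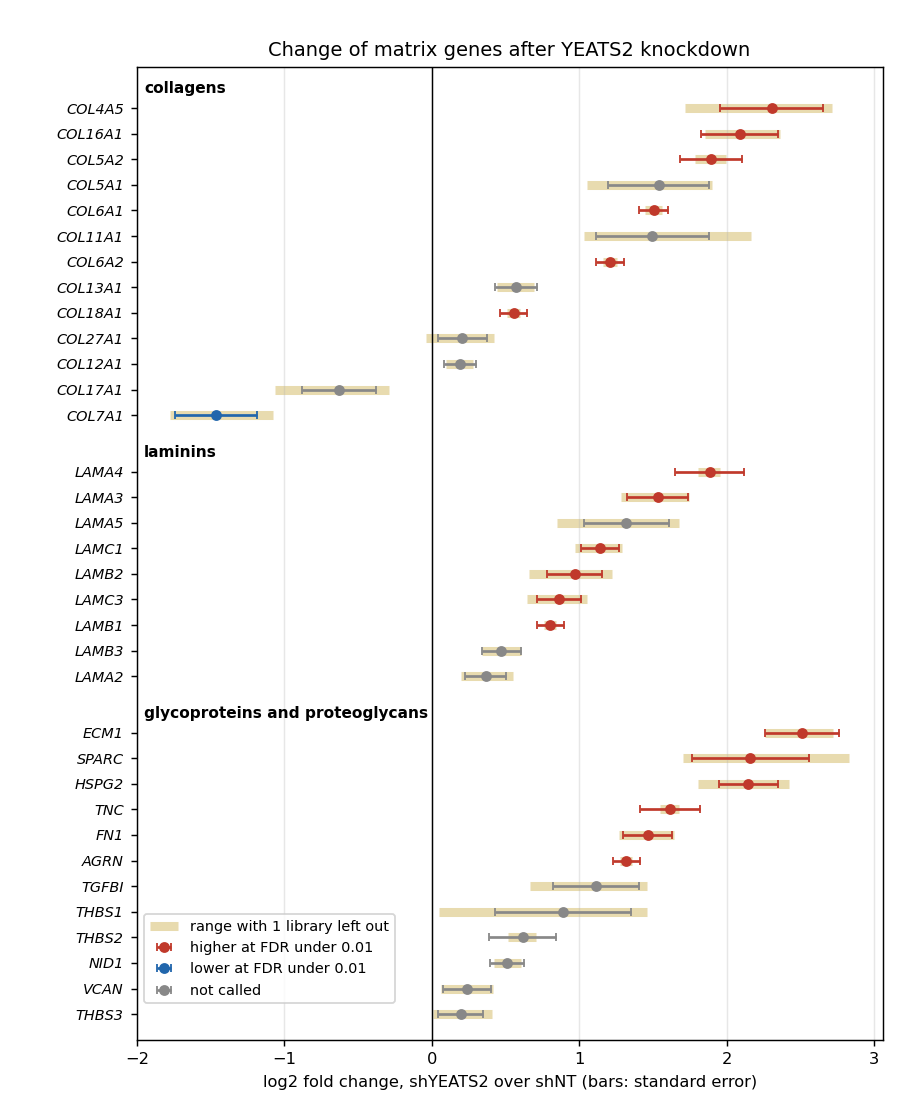
Log2 fold change (shYEATS2 over shNT) of 34 of the matrix genes from edgeR's quasi-likelihood fit, with bars for the standard error and wide pale bars for the range over fits with 1 of the 4 libraries left out. Red marks the 18 genes called higher, blue COL7A1, the gene called lower, and grey the 15 not called, and 32 of the 34 values lie above 0.

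All 10 listed laminin chains had both KD libraries above both control libraries, and 6 of them were called higher, beside 39.7% and 12.9% of all genes. LAMA4, which is counted in both, was listed through its shYEATS2 libraries only. LAMC1 (chromosome 1, 182992555 to 183114727), the γ chain shared by most laminins, had 7877 and 7445 scaled reads in shNT and 15025 and 18733 in shYEATS2 libraries. Its KD values are far above its control values. It rose by 1.14 (log2 fold change, standard error 0.13, FDR 0.00137), and it was called with any library left out. LAMC3 (chromosome 9, 133884561 to 133969860), a γ chain of a few tissues, had 684 and 665 scaled reads in shNT and 1056 and 1398 in shYEATS2 libraries, with a log2 fold change of 0.86 (standard error 0.15, FDR 0.00503). Its call was lost without shNT replicate 1 (FDR 0.0138) or shNT replicate 2 (0.0148), and when the trends were removed (FDR 0.0127).

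Both common β chains rose. LAMB1 (chromosome 7, 107564244 to 107643658) had 2399 and 2524 scaled reads in shNT and 4287 and 4308 in shYEATS2 libraries, the closest agreement between KD libraries in the group. It rose by 0.80 (standard error 0.092, FDR 0.00146). LAMB2 (chromosome 3, 49158547 to 49170551), the β chain of the neuromuscular and kidney basement membranes, had 2310.1 and 2574 scaled reads in shNT and 3849 and 5709.6 in shYEATS2 libraries and rose by 0.97 (standard error 0.18, FDR 0.00667). That call was lost without shNT replicate 1 (FDR 0.0173). LAMB3 (chromosome 1, 209788215 to 209825770), a β chain of epithelial laminin, had 3357 and 2799 scaled reads in shNT and 3892 and 4651 in shYEATS2 libraries. Its smaller difference, 0.47 on the log2 scale (95% interval 0.15 to 0.79), had an FDR of 0.0257. Leaving out 1 library gave FDRs from 0.00941 (shYEATS2 replicate 1) to 0.148 (shNT replicate 2).

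Among α chains, which carry most cell-binding sites, LAMA4 (chromosome 6, 112429134 to 112576141) had 37.7 and 36.9 scaled reads in shNT and 131 and 145 in shYEATS2 libraries. It rose by 1.88 (log2 fold change, standard error 0.23, FDR 0.00179) and, as given above, was listed through its shYEATS2 libraries only. LAMA3 (chromosome 18, 21269417 to 21536186), an α partner of LAMB3, had 125 and 116 scaled reads in shNT and 293 and 404 in shYEATS2 libraries and rose by 1.53 (standard error 0.21, FDR 0.00230). LAMA5 (chromosome 20, 60883011 to 60942368), the α chain of many adult basement membranes, had 1799 and 2651 scaled reads in shNT and 4006 and 7096 in shYEATS2 libraries. Its replicates were spread widely in both groups, and the log2 fold change of 1.32 (95% interval 0.63 to 2.00) missed the threshold at an FDR of 0.0105. It passed without shNT replicate 2 (FDR 0.00384) or shYEATS2 replicate 1 (0.00102) and not without shNT replicate 1 (0.0212) or shYEATS2 replicate 2 (0.0200, log2 value 0.85). Replicate 2 is the higher one in both groups, and the block fit called LAMA5 (1.29, FDR 0.0000540). LAMA2 (chromosome 6, 129204283 to 129837711), the α chain of muscle laminin, had 975 and 1237 scaled reads in shNT and 1504 and 1347 in shYEATS2 libraries, and its log2 fold change of 0.37 (95% interval 0.034 to 0.70) had an FDR of 0.0672.

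Perlecan and agrin, linkers of the basement membrane, rose in KD cells. HSPG2 (chromosome 1, 22148737 to 22263803), which encodes the heparan sulfate proteoglycan perlecan, had 2766 and 2573 scaled reads in shNT and 9343 and 14309 in shYEATS2 libraries. Every KD value is over 3 times every control value. The rise was 2.15 on the log2 scale (standard error 0.20, FDR 0.00105), between 1.81 and 2.42 with 1 library left out. AGRN (chromosome 1, 955500 to 991498), for agrin, which binds laminin and dystroglycan, had 3816 and 3746 scaled reads in shNT and 9173 and 9696 in shYEATS2 libraries. It rose by 1.32 (standard error 0.092, FDR 0.000793) with replicates close together in both groups. NID1 (chromosome 1, 236139130 to 236228409), for nidogen, the bridge between laminin and type IV collagen, had 617 and 694 scaled reads in shNT and 924 and 947 in shYEATS2 libraries. The groups do not overlap, and the log2 fold change of 0.51 (95% interval 0.24 to 0.79) had an FDR of 0.0115, just above the threshold. It was called by exactTest (FDR 0.00124) and DESeq2 (FDR 0.00566) and in the block fit (FDR 0.00322), and in no fit with 1 library left out (FDRs from 0.0167 to 0.102). Of HSPG2 exon bases, 11.7% overlap LDLRAD2 on the opposite strand, a gene that was not listed.

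Fibronectin and ECM1 were higher in KD cells. FN1 (chromosome 2, 216225163 to 216300796), for fibronectin, the main ligand of integrins in the provisional matrix, had 1705 and 2152 scaled reads in shNT and 4649 and 5989.9 in shYEATS2 libraries and rose by 1.46 (log2 fold change, standard error 0.16, FDR 0.00141). ECM1 (chromosome 1, 150480538 to 150486265), which binds perlecan and other basement membrane proteins, had 45.2 and 56.4 scaled reads in shNT and 244 and 336 in shYEATS2 libraries. Its log2 fold change of 2.51 (standard error 0.25, FDR 0.00116) was the largest of the 35. ECM1, SPARC and TNC were listed through their shYEATS2 libraries only, so they had to be higher there. Of the 25 members with over 100 reads in both groups, COL4A5 had the largest log2 fold change (2.31). SPARC (chromosome 5, 151040657 to 151066536), a collagen-binding matricellular protein, had 33.4 and 72.7 scaled reads in shNT and 179 and 295 in shYEATS2 libraries. Replicate 2 is the higher one in each group. The log2 fold change was 2.16 (standard error 0.40, FDR 0.00582). It was 2.83 without shNT replicate 2, and without shYEATS2 replicate 2 it was 1.75 and no longer called (FDR 0.0157). TNC (chromosome 9, 117781854 to 117880486), for tenascin-C, an adhesion-modulating glycoprotein of remodelling tissue, had 66.7 and 60.8 scaled reads in shNT and 187 and 204 in shYEATS2 libraries and rose by 1.62 (standard error 0.20, FDR 0.00185). The tenascin values were tight within both groups.

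THBS1 and TGFBI differed between replicates in the same direction in both groups. THBS1 (chromosome 15, 39873280 to 39891667), for thrombospondin, a secreted regulator of adhesion and angiogenesis, had 7369 and 3733 scaled reads in shNT and 14854 and 5738 in shYEATS2 libraries. Replicate 1 is the higher one in each group, and shNT replicate 1 lies above shYEATS2 replicate 2, so the groups overlap. Its log2 fold change of 0.89 (standard error 0.46, 95% interval -0.21 to 1.99, FDR 0.150) ranged from 0.049 without shYEATS2 replicate 1 to 1.46 without shNT replicate 1. With the replicate number as a block it was 0.82 with an FDR of 0.000427. TGFBI (chromosome 5, 135364677 to 135399507), an adhesion protein induced by TGF-β that binds collagens, had 3532 and 2298 scaled reads in shNT and 8019 and 4615 in shYEATS2 libraries. The estimate was 1.12 on the log2 scale (95% interval 0.43 to 1.80, FDR 0.0193), and 1.10 with an FDR of 0.0000659 in the block fit. Without shNT replicate 1 the FDR was 0.00543 and without shYEATS2 replicate 2 it was 0.00385, whereas it was 0.0432 without shNT replicate 2 and 0.0444 without shYEATS2 replicate 1, where the log2 value was 0.66. The labels do not say that a replicate number marks a shared day or culture.

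**Figure D3:**
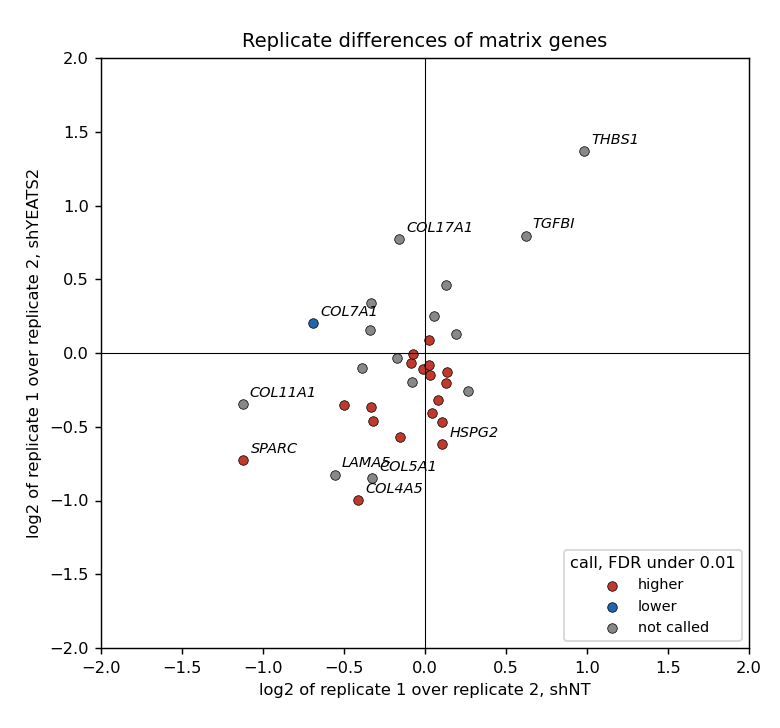
Log2 ratio of replicate 1 to replicate 2 (TMM-scaled counts) of each of 34 matrix genes in shNT (horizontal axis) and shYEATS2 libraries (vertical axis), coloured by call. THBS1 and TGFBI lie at the upper right with replicate 1 higher in both groups, and SPARC and COL11A1 lie at the lower left.

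The remaining members were not called. THBS2 (chromosome 6, 169615875 to 169654145) and THBS3 (chromosome 1, 155165379 to 155178842) are further thrombospondins. THBS2 had 63.5 and 67.3 scaled reads in shNT and 93.3 and 107 in shYEATS2 libraries, with a log2 fold change of 0.62 (95% interval 0.070 to 1.16, FDR 0.0627). THBS3 had 695 and 912 scaled reads in shNT and 888 and 952 in shYEATS2 libraries, and its log2 fold change of 0.20 had a 95% interval from -0.16 to 0.55 (FDR 0.310). shNT replicate 2 lies between the KD libraries of THBS3. These genes overlap antisense RNAs over 31.2% (THBS2) and 25.9% (THBS3) of their exon bases, and because the library kit does not mark strand, reads from either RNA cannot be told apart. VCAN (chromosome 5, 82767437 to 82878122), for the chondroitin sulfate proteoglycan versican, had 768 and 967 scaled reads in shNT and 1145 and 904 in shYEATS2 libraries. The groups overlap, with a log2 fold change of 0.24 (95% interval -0.15 to 0.63, FDR 0.259). In all, 16 members were not called, of which 8 were called by exactTest and 8 in the block fit. ExactTest called 26 members higher and 1 lower, beside 20.5% of all genes higher, and the block fit also called 26 higher and 1 lower, beside 21.6% of all genes higher.

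Levels were compared between genes as reads per kb of the canonical transcript, relative to the TMM library size as in the CPM values (RPKM). In shNT cells TGFBI was highest at 29.5 ± 8.84 (SD, n = 2), followed by LAMC1 at 26.5 ± 1.06 (SD, n = 2), LAMB3 at 21.1 ± 2.70 (SD, n = 2), THBS1 at 19.6 ± 9.06 (SD, n = 2) and COL6A2 at 19.0 ± 0.817 (SD, n = 2). TGFBI and LAMC1 did not differ beyond the spread of TGFBI, and THBS1, with its wide spread, could not be ordered against either LAMB3 or COL6A2. In shYEATS2 cells TGFBI reached 63.9 ± 24.4 (SD, n = 2) and LAMC1 58.4 ± 9.08 (SD, n = 2), with COL6A2 at 44.1 ± 1.42 (SD, n = 2) and COL6A1 at 40.9 ± 2.20 (SD, n = 2). The spread of TGFBI covers its difference from each of these genes. HSPG2 moved from rank 15 at 5.11 ± 0.261 (SD, n = 2) to rank 10 at 22.6 ± 6.72 (SD, n = 2). LAMB3 moved from rank 3 to rank 7 at 29.2 ± 3.67 (SD, n = 2), and COL7A1 from rank 25 at 0.624 ± 0.208 (SD, n = 2) to the lowest level of the 35 at 0.226 ± 0.0228 (SD, n = 2). The listed chains that were lowest in shNT cells were COL11A1, LAMA4, COL5A1, TNC and COL5A2, all between 0.116 and 0.219 on this scale.

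**Figure D4:**
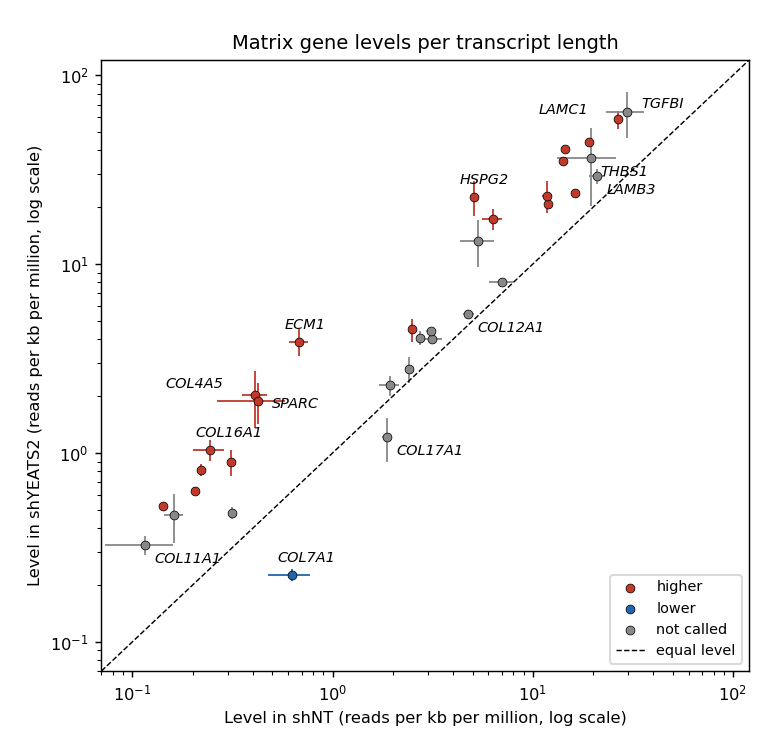
Mean level of each of 34 matrix genes in shNT (horizontal axis) and shYEATS2 libraries (vertical axis), in RPKM on log axes. Lines span the 2 libraries of each group, and the dashed line marks equal levels, below which COL7A1 and COL17A1 lie.

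Genes that act on the matrix proteins were taken from 3 lists. Of 28 genes for the folding, processing and export of collagen, 26 were listed, and 10 were called higher and 2 lower, with a median log2 fold change of 0.52. The shares called over all genes were 12.9% and 12.5%. SERPINH1, the collagen chaperone of the endoplasmic reticulum, had 4382 and 4107 scaled reads in shNT and 11003 and 12794 in shYEATS2 libraries and rose by 1.49 (log2 fold change, standard error 0.11, FDR 0.000793). The prolyl 3-hydroxylase gene LEPREL1 rose by 1.05 (FDR 0.00370), the procollagen C-proteinase gene BMP1 by 1.03 (FDR 0.00119), and SEC24D, a coat protein of export vesicles, by 1.01 (FDR 0.00168). FKBP10 (0.90), FKBP14 (0.77), PLOD1 (0.65), MIA3 (0.65), LEPRE1 (0.53) and PLOD3 (0.51), which fold, hydroxylate or export procollagen, were also called higher by these log2 fold changes. Of these 6, FKBP10 was called with any library left out, and the others each lost the call without at least 1 library, with FDRs up to 0.0683 (PLOD3 without shNT replicate 2). PCOLCE, the enhancer of BMP1, fell, with 489.6 and 696 scaled reads in shNT and 260.4 and 328 in shYEATS2 libraries and a log2 fold change of -1.01 (FDR 0.00834). Its call was lost without shNT replicate 2 (FDR 0.0336), shYEATS2 replicate 1 (0.0212) or shYEATS2 replicate 2 (0.0108). P4HA2, a prolyl 4-hydroxylase subunit, fell by a log2 fold change of -0.77 (FDR 0.00416), lost without shNT replicate 2 (FDR 0.0243) or shYEATS2 replicate 2 (0.0115), while its catalytic relative P4HA1 (0.50, FDR 0.0117) and the shared subunit P4HB (-0.0046, FDR 0.973) were not called.

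The called receptors of collagens, laminins and fibronectin all rose. Of 30 genes 23 were listed, with 7 called higher and none lower, and the median log2 fold change was 0.26. Over all genes 12.9% were called higher and 12.5% lower. At an unadjusted p under 0.05, 11 receptors were higher and 6 lower, beside 3636 and 3528 of all 12676 genes. By exactTest and by DESeq2 3 receptors were called lower, beside 2497 and 2190 of all genes. With the replicate number as a block 6 receptors were called lower, beside 2715 of all genes. DDR2 and GPR56 had over 100 reads in shYEATS2 libraries only and so were listed through the group where they are high. Of the 19 receptors with over 100 reads in both groups, 5 were called higher, with a median log2 fold change of 0.26. Of all genes with reads in both groups, 11.9% were called higher. DDR2 and DDR1 are collagen receptor kinases. DDR2 had 87.2 and 73.8 scaled reads in shNT and 233 and 507 in shYEATS2 libraries (log2 fold change 2.20, standard error 0.38, FDR 0.00468), and DDR1 had 1799 and 1923 scaled reads in shNT and 5162 and 8096 in shYEATS2 libraries (1.83, standard error 0.21, FDR 0.00140). Without shYEATS2 replicate 2 they were 1.53 (DDR2) and 1.47 (DDR1), and both were called with any library left out. Integrin subunit ITGA5, which binds fibronectin, rose by 1.70 (FDR 0.000793), and ITGA2, which binds collagen, by 1.37 (FDR 0.00113). The adhesion receptor GPR56 (1.55), the laminin-binding subunit ITGA3 (0.83) and the collagen-binding subunit ITGA1 (0.80) were called higher by these log2 values. None of these kept the call in every fit with 1 library left out. Their log2 values in those fits lay between 1.21 and 1.95 (GPR56), 0.75 and 0.92 (ITGA3), and 0.66 and 0.93 (ITGA1). The common partner ITGB1 had a log2 fold change of 0.29 (FDR 0.0772) and dystroglycan (DAG1) one of 0.0094 (FDR 0.939). ITGA6 (-0.38, FDR 0.0272) and ITGB4 (-0.47, FDR 0.118), the hemidesmosomal laminin receptor, were not called.

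Of 35 other matrix glycoproteins and proteoglycans on the third list, 11 were listed, and 3 were called higher and none lower (0 also at an unadjusted p under 0.05, by exactTest and by DESeq2, and 1 with the replicate block), with a median log2 fold change of 0.38. These 3 were TNXB, with 40.9 and 62.9 scaled reads in shNT and 161 and 446 in shYEATS2 libraries (log2 fold change 2.55, FDR 0.00759), SPOCK3 (1.78, FDR 0.00593) and MATN2 (1.62, FDR 0.00146). TNXB and SPOCK3 were listed through the shYEATS2 libraries only. Of the 7 genes of this list with over 100 reads in both groups, 1 (MATN2) was called higher, with a median of 0.21. The share called higher was 12.9% over all genes and 11.9% over all genes with reads in both groups. TNXB lost its call without shNT replicate 1 (FDR 0.0141), and its log2 fold change was 1.63 without shYEATS2 replicate 2. SPOCK3 lost its call without shNT replicate 1 (FDR 0.0312) or shYEATS2 replicate 2 (0.0212). The peroxidase PXDN, which crosslinks type IV collagen, had a log2 fold change of -0.039 (FDR 0.842).

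**Figure D5:**
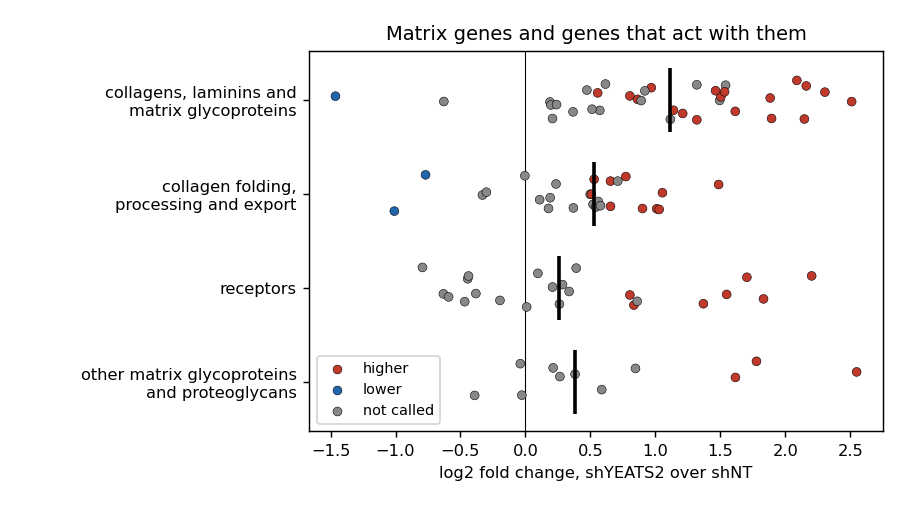
Log2 fold change (shYEATS2 over shNT) of the 35 matrix genes and of the listed genes of 3 further lists (26 for collagen folding, processing and export, 23 receptors and 11 other matrix genes). Each point is a gene coloured by its call and each vertical bar a median, at 1.12, 0.52, 0.26 and 0.38 from top to bottom.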

How the data were processed

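RNA-seq was done on 4 H1299 libraries, 2 with shNT and 2 with shYEATS2; the ChIP-seq samples of the series were not used here. The authors counted reads per gene with HTSeq (hg19 build) and deposited those raw counts. The study's methods name RUM (RNA-Seq unified mapper) for mapping, whereas the submitters' processing notes, which also cover ChIP-seq, list TopHat2 and Bowtie2 and not RUM. Their replicates were not pooled. HTSeq was run with its defaults, which count by strand, on libraries from a kit that does not mark strand. Every gene in the deposited table had over 100 reads in at least 1 library, which affects which low genes can appear.

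Counts were scaled by TMM and fitted with edgeR 4.0.16 (R 4.3.3), with the groups as the only term and genes called by the quasi-likelihood test at a Benjamini-Hochberg FDR under 0.01 over all 12676 genes. The study's own test, edgeR's exactTest, was run as an alternative, with DESeq2 1.42.0, limma 3.58.1, other scalings and filters, a replicate block, and each library left out. Library totals of 34718921 to 39417787 reads set the counting precision. The fit was tested on simulated counts. These had the same setting of spread for every gene and no link between same-numbered libraries, so they do not measure error rates in these data. Gene positions are on GRCh37 (the build hg19), and 98.3% of gene identifiers matched the annotation. Members and gene lists were chosen with earlier results of these data known, and all members are named except 1, whose values are not reported here and which is counted in the totals. Of each further list, up to 6 called genes with the largest absolute log2 fold change were to be named, and the other list genes in the text were chosen after their values were seen.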

Additional observations from a re-analysis of the deposited data

How the results depend on the processing

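Of 592 values of single matrix genes under alternatives, 532 kept their direction and side of the threshold, 45 (in 10 genes) passed it, 11 (in 5 genes) no longer did and 4 (in 3 genes) changed sign. The sign changes were COL27A1 at -0.037 without shYEATS2 replicate 1 (0.42 without shYEATS2 replicate 2) and, with trends in length, GC content and count removed, COL27A1 at -0.021, COL12A1 at -0.014 and THBS2 at -0.064. That removal gave a median of 0.89 over the matrix genes. With 1 library left out, the lower call did not stay with 1 gene. In these fits COL7A1 lay between -1.77 and -1.07 and COL17A1 between -1.06 and -0.29. The median over the matrix genes lay between 0.97 and 1.23. Over all genes, 775 to 1971 were then called higher and 850 to 2024 lower. ExactTest called 2596 genes higher and 2497 lower, and an FDR under 0.05 gave 3093 and 3011. Column totals gave 2363 higher and 1166 lower, with 23 matrix genes higher and a median of 1.24. Of the genes on the 3 further lists, 2 were called lower in the reported fit, 5 by DESeq2, 5 by exactTest, 1 with column totals, 8 at an FDR under 0.05 and 0 to 4 with 1 library left out, which gave 12 to 24 called higher. The cause was not tested.

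With the replicate number as a block, 2742 genes were called higher and 2715 lower, 26 matrix genes higher and 1 lower, and 9 genes of the further lists lower. Deviations of same-numbered libraries correlated at 0.40 over 12676 genes, but with 2 pairs and no label for what a number marks, the pairing is not established. Only 2 libraries per group and genes of low count limit what could be detected.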
